A study of Mus musculus with 6 samples.

Results

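The insulin-like growth factor (IGF) family was followed across fibroblasts of 3 origins as 10 named genes out of 57180 gene identifiers in the count table. They are the ligands Igf1 and Igf2, the receptors Igf1r and Igf2r, and the binding proteins Igfbp2 to Igfbp7. They were listed by name, by a rule that uses no measured value, though earlier results of these data were known when the list was made. All 10 were among the 18143 genes that passed the filter on low counts, and none fell below it.

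IGF1 and IGF2 are secreted growth factors that act through the IGF1 receptor, a tyrosine kinase that signals through insulin receptor substrates, PI3K and AKT. IGF2R, also known as the cation-independent mannose 6-phosphate receptor, takes IGF2 into the cell for degradation. Binding proteins hold IGFs outside the cell, and proteases such as PAPP-A, which cuts IGFBP4, release them. Fibroblasts are a known local source of IGF1 and of binding proteins in many tissues.

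Polyadenylated RNA of mouse fibroblasts was sequenced in 6 libraries, 1 for each origin and virus. The groups were cardiac fibroblasts with Ad-Cre and with Ad-GFP, lung fibroblasts with Ad-Cre and with Ad-GFP, and tail tip fibroblasts with Ad-Cre and with Ad-GFP. Ad-Cre is an adenovirus that delivers the Cre recombinase and stands in the labels for the Gata4 knockout, and Ad-GFP delivers a fluorescent protein and stands for the control. All cells were grown in DMEM with 10% FBS and taken 48 h after transduction. The labels give the genotype as WT for all 6 libraries and do not say which part of Gata4 would be deleted; strain, age and sex of the animals, and the number of animals behind a culture, were not stated in the labels. With 1 library per group, Ad-Cre and Ad-GFP were compared by test only for a change common to the 3 origins, and the origins were compared with their Ad-Cre and Ad-GFP libraries as the pair that gives the spread. Those p-values measure the spread between these libraries, which may come from 1 culture per origin.

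Total counts ran between 26170316 and 33779069 reads per library. Gata4, a zinc-finger transcription factor of the heart, had 4561 reads in cardiac Ad-Cre and 4769 in cardiac Ad-GFP, 492 in lung Ad-Cre and 428 in lung Ad-GFP, and 2 in tail tip Ad-Cre and 1 in tail tip Ad-GFP. Scaled for depth, Gata4 had 149 CPM in cardiac Ad-Cre against 146 CPM in cardiac Ad-GFP, an Ad-Cre over Ad-GFP ratio of 1.02 (95% counting interval 0.978 to 1.06), and a ratio of 1.31 (1.14 to 1.49) in lung cells. Reads outside a deleted exon would not show a deletion, so this count does not check the labels. The 8 fibroblast markers, such as collagens and Pdgfra, summed to between 4925 and 16677 CPM (counts per megaread of TMM-scaled library size) in the 6 libraries, with none at 0. The 5 endothelial markers summed to between 7.27 and 19.9 CPM, and the 6 smooth muscle and pericyte markers to between 729 and 2893 CPM. The 9 macrophage and leukocyte markers summed to 616 and 1032 CPM in cardiac Ad-Cre and Ad-GFP, 14.9 and 19.3 CPM in lung Ad-Cre and Ad-GFP, and 4447 and 5239 CPM in tail tip Ad-Cre and Ad-GFP. In bulk RNA, fewer cells of a type and less RNA per cell cannot be told apart.

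The 250 bases before each RefSeq start of the 10 genes (14 windows, mouse build GRCm38.p6) were searched on both strands for letters of the kind that GATA factors are known to bind (AGATAA in its first form, AGATAG in another, TGATAA in a further form and TGATAG in the last, together called GATA-type here), for TATAAA, the TATA box letters, and for GGGCGG, the letters of a GC box. A GATA-type match stood in 2 of the 14 windows, those of Igf1 and Igfbp6, against 26.5% of 32851 mouse promoter windows. TATAAA stood in 2 of the 14, against 12.4% of all windows, and GGGCGG in 6, against 32.7%. The last 120 bases before the start are shown for Igf1 and Igfbp6 because the series concerns a GATA factor, and for Igfbp2 and Igfbp4 because these 2 differed most between origins. Capitals mark the matches, and in Igf1 a pair of AGATAG matches overlaps.
Igf1, chr10:87860991-87861110, plus strand: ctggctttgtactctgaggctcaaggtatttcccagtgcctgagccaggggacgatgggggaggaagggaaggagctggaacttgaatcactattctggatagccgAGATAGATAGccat
Igfbp2, chr1:72824360-72824479, plus strand: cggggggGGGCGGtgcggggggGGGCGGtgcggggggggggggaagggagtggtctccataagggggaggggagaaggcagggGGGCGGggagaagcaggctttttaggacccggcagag
Igfbp4, chr11:99041124-99041243, plus strand: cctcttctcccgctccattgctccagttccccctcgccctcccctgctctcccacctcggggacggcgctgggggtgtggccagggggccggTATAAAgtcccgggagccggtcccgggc
Igfbp6, chr15:102144066-102144185, plus strand: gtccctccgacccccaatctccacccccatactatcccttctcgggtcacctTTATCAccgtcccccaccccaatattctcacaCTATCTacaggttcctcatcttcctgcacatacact
The matches describe these letters and say nothing of factor binding in the cells studied.

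Between origins, most family members differed. Cardiac fibroblasts had more Igf1, Igf1r, Igf2r, Igfbp2 and Igfbp7 RNA than lung fibroblasts and less Igfbp5 and Igfbp6, and 5 of the 10 members were called higher and 2 lower at an adjusted p under 0.05. Over all 18143 genes tested, 20.8% were called higher and 17.6% lower in that comparison. Against tail tip fibroblasts, cardiac fibroblasts had 4 members higher and 5 lower, where 15.5% of all genes were higher and 18% lower. The higher calls of Igf2r and Igfbp7 in this comparison did not hold with either tail tip library left out, though their fold changes kept their sign. On the log2 scale they were 0.39 and 0.63 without tail tip Ad-Cre, and 0.51 and 0.70 without tail tip Ad-GFP. Such a fit leaves an origin 1 library, and the cause of the lost calls was not tested. Lung fibroblasts had 0 members higher and 7 lower than tail tip fibroblasts, against 22.3% higher and 28.2% lower among all genes. All 9 macrophage and leukocyte markers were also lower in that comparison. Their part in the levels of the members and of the other genes below was not tested. The median log2 fold change of the 10 members was 0.81 for cardiac over lung, -0.14 for cardiac over tail tip and -2.28 for lung over tail tip, beside -0.01, -0.06 and -0.06 over all genes.

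**Figure D1:**
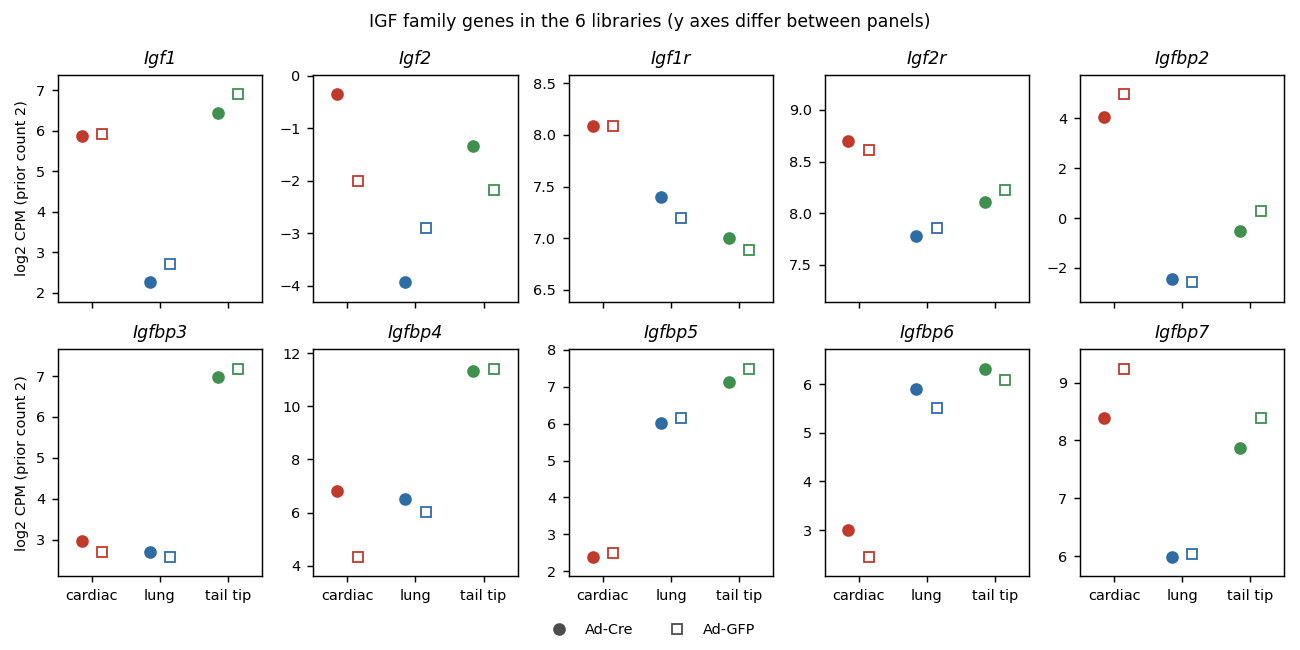
Level of each of the 10 genes as log2 CPM with a prior count of 2 (y axis, different for each panel) in cardiac, lung and tail tip fibroblasts, with 1 point per library, filled for Ad-Cre and open for Ad-GFP. The pairs of an origin sit close for most genes, and the widest gap within a pair is that of Igfbp4 in cardiac cells, 114 CPM in Ad-Cre against 20.3 CPM in Ad-GFP.

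Igf1, the main ligand of the receptor, was lowest in lung and highest in tail tip fibroblasts. It had 58.3 CPM in cardiac Ad-Cre and 59.9 CPM in cardiac Ad-GFP, 4.71 CPM in lung Ad-Cre and 6.48 CPM in lung Ad-GFP, and 85.9 CPM in tail tip Ad-Cre and 119 CPM in tail tip Ad-GFP. The ranges of the 3 origins did not overlap. The log2 fold change compares TMM-scaled counts, and adjusted p is edgeR's quasi-likelihood p after Benjamini-Hochberg adjustment. Igf1 was higher in cardiac than in lung fibroblasts by 3.42 on the log2 scale (SE 0.19, adjusted p = 3.6e-05) and lower in lung than in tail tip fibroblasts, with a log2 fold change of -4.19 (SE 0.20, adjusted p = 9.4e-06). Cardiac was below tail tip by a log2 fold change of -0.77 (SE 0.17, adjusted p = 0.013), a call that was lost without the tail tip Ad-GFP library (adjusted p = 0.18). The summed macrophage and leukocyte markers given above follow the same order of origins as Igf1, which macrophages are also known to make, with 4 of the 9 at 0 reads in lung Ad-Cre, 2 in lung Ad-GFP and none in the other 4 libraries. All 9 were called higher in cardiac than in lung fibroblasts and all 9 lower in lung than in tail tip. Their part in the Igf1 levels was not tested.

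Pstpip1, known mainly from leukocytes, had the pattern most like Igf1 over the 6 libraries (Pearson r = 0.999). It had 8.96 and 9.61 CPM in cardiac Ad-Cre and Ad-GFP, 0.428 and 0.549 CPM in lung Ad-Cre and Ad-GFP, and 17.6 and 21.8 CPM in tail tip Ad-Cre and Ad-GFP. Of 1942 genes that could be compared, 443 had r above 0.95 with Igf1, so that Pstpip1 is the top of a long list, and the 6 points form 3 pairs of an origin.

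Igf2, the fetal ligand that is expressed from the paternal allele, had few reads. It had 22 reads in cardiac Ad-Cre and 6 in cardiac Ad-GFP, 0 in lung Ad-Cre and 2 in lung Ad-GFP, and 11 in tail tip Ad-Cre and 5 in tail tip Ad-GFP. A library with 0 reads allows up to 3, or 0.117 CPM at the depth of lung Ad-Cre. Cardiac and tail tip ranges overlapped, and none of the 3 comparisons of origins passed the threshold (adjusted p = 0.12 for cardiac over lung). A fit without the cardiac Ad-GFP library, which leaves cardiac cells 1 library, gave a log2 fold change of 3.92 for cardiac over lung. H19, the imprinted neighbour of Igf2 that is expressed from the maternal allele, had 226 reads in cardiac Ad-Cre and 162 in cardiac Ad-GFP, 37 in lung Ad-Cre and 12 in lung Ad-GFP, and 573 in tail tip Ad-Cre and 530 in tail tip Ad-GFP. H19 was higher in cardiac than in lung fibroblasts (log2 fold change 2.81, SE 0.42, adjusted p = 0.0024), and lower in lung than in tail tip (-4.32, SE 0.43, adjusted p = 0.00021).

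Both receptors were highest in cardiac fibroblasts. Igf1r had 271 CPM in cardiac Ad-Cre and 272 CPM in cardiac Ad-GFP, 168 CPM in lung Ad-Cre and 147 CPM in lung Ad-GFP, and 128 CPM in tail tip Ad-Cre and 118 CPM in tail tip Ad-GFP. Igf1r was higher in cardiac than in lung fibroblasts by 0.79 on the log2 scale (SE 0.14, adjusted p = 0.0050) and than in tail tip fibroblasts by 1.15 (SE 0.14, adjusted p = 0.0011). Lung and tail tip ranges did not overlap either, but their log2 fold change of 0.36 (SE 0.14) did not pass the threshold (adjusted p = 0.072). It passed without cardiac Ad-Cre (adjusted p = 0.011), without cardiac Ad-GFP (0.013), in the fit of origin alone (0.046) and in DESeq2 (0.047).

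Igf2r, the clearance receptor, had 416 CPM in cardiac Ad-Cre and 390.0 CPM in cardiac Ad-GFP, 220.4 CPM in lung Ad-Cre and 232 CPM in lung Ad-GFP, and 276 CPM in tail tip Ad-Cre and 299.6 CPM in tail tip Ad-GFP. The order was cardiac, tail tip, lung, with no overlap. It was higher in cardiac than in lung fibroblasts by 0.83 on the log2 scale (SE 0.14, adjusted p = 0.0041). Cardiac over tail tip was 0.49 (SE 0.14, adjusted p = 0.036), and this call was lost with library totals in place of TMM factors (adjusted p = 0.059), without the filter on low counts (0.081), and without lung Ad-GFP (0.050), tail tip Ad-Cre (0.55) or tail tip Ad-GFP (0.38). Lung over tail tip was -0.35 (SE 0.14, adjusted p = 0.078), and it passed without cardiac Ad-Cre (0.017), without cardiac Ad-GFP (0.011) and in the fit of origin alone (0.040). Airn, an antisense transcript of Igf2r, had 161 to 227 reads per library and did not differ between origins past the threshold. Per kilobase of exon, Igf1r stood at 0.361 and 0.386 of Igf2r in cardiac Ad-Cre and Ad-GFP, 0.423 and 0.350 in lung Ad-Cre and Ad-GFP, and 0.256 and 0.218 in tail tip Ad-Cre and Ad-GFP. These ratios depend on the length taken. With the longest transcript as length, cardiac Ad-Cre had 23.8 CPM per kilobase for Igf1r and 46.8 for Igf2r. Per kilobase of exon the same values were 16.2 and 44.7.

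**Figure D2:**
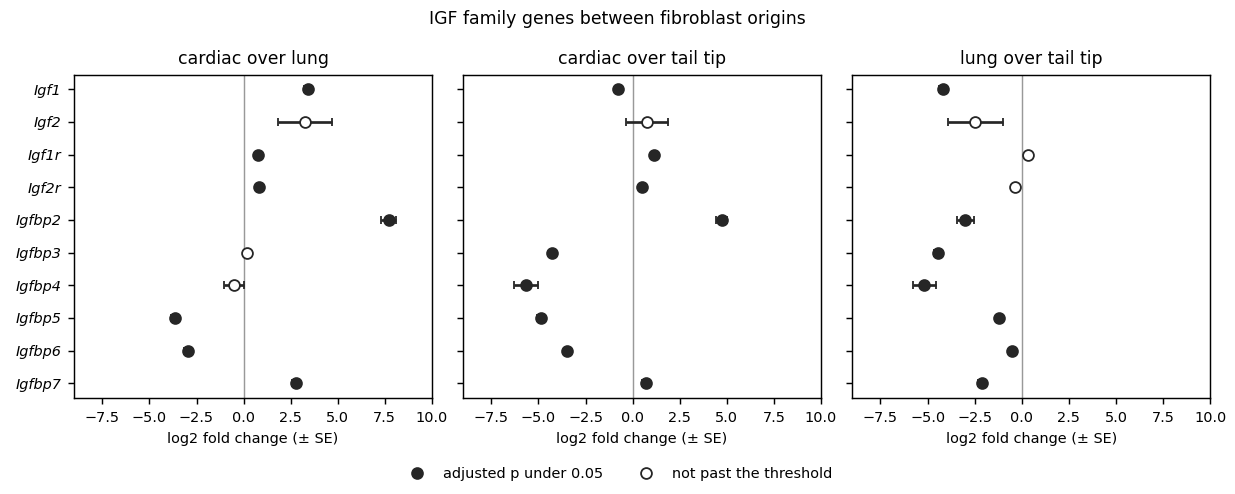
Log2 fold change (x axis) with its standard error for each gene between origins, from the edgeR model over all 6 libraries, with filled points for an adjusted p under 0.05. In the panel of lung over tail tip fibroblasts no filled point lies above 0, and Igfbp4 has the lowest value, -5.17.

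Igfbp2, a binding protein that prefers IGF2, was read mainly in cardiac fibroblasts. It had 502 reads in cardiac Ad-Cre and 1020 in cardiac Ad-GFP, 3 in lung Ad-Cre and 3 in lung Ad-GFP, and 21 in tail tip Ad-Cre and 37 in tail tip Ad-GFP. With both viruses summed, the cardiac level was 220.3 times the lung level (95% counting interval 101 to 601), and 26.996 times the tail tip level (20.8 to 35.7). Both differences passed the test, with log2 fold changes of 7.71 (SE 0.39, adjusted p = 2.7e-05) and 4.72 (SE 0.30, adjusted p = 6.3e-05). Eln, the gene of elastin, was most like Igfbp2 in pattern (r = 0.995), followed by Aldh1a2, a retinoic acid synthesis enzyme (r = 0.994), over the 6 libraries.

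Igfbp3, the main carrier of IGFs in serum, was high only in tail tip fibroblasts. It had 7.69 CPM in cardiac Ad-Cre and 6.39 CPM in cardiac Ad-GFP, 6.47 CPM in lung Ad-Cre and 5.93 CPM in lung Ad-GFP, and 126 CPM in tail tip Ad-Cre and 145 CPM in tail tip Ad-GFP. Cardiac and lung ranges overlapped (adjusted p = 0.47), and both were below tail tip, by log2 fold changes of -4.27 (SE 0.20, adjusted p = 2.5e-05) for cardiac and -4.45 (SE 0.20, adjusted p = 7.8e-06) for lung fibroblasts.

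Igfbp4, the substrate of PAPP-A, reached the highest level of the family per kilobase of exon, 580.0 CPM per kilobase in tail tip Ad-Cre and 620.0 in tail tip Ad-GFP. In CPM it had 114 CPM in cardiac Ad-Cre and 20.3 CPM in cardiac Ad-GFP, 92.3 CPM in lung Ad-Cre and 65.0 CPM in lung Ad-GFP, and 2561 CPM in tail tip Ad-Cre and 2738 CPM in tail tip Ad-GFP. Tail tip stood far above both other origins, while the cardiac pair spanned the lung pair. The log2 fold change was -5.66 for cardiac over tail tip (SE 0.64, adjusted p = 0.00071) and -5.17 for lung over tail tip (SE 0.61, adjusted p = 0.00045). The 2 calls were lost when either lung library was left out, with adjusted p = 0.25 for cardiac over tail tip and adjusted p = 0.33 and 0.34 for lung over tail tip, while the fold changes stayed between -4.91 and -5.80. Cardiac over lung was not called (-0.49, SE 0.54, adjusted p = 0.50), and it was called without the filter on low counts (-0.54, adjusted p = 0.011) and without either tail tip library (-0.71, adjusted p = 0.037 and 0.036). Its value was -1.84 without cardiac Ad-Cre and 0.41 without cardiac Ad-GFP, so the direction turned on which cardiac library was kept. Each of these fits has 1 cardiac library and measures no spread between cardiac libraries.

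Igfbp5 and Igfbp6 were lowest in cardiac fibroblasts. Igfbp5, a binding protein held in the matrix, had 5.20 CPM in cardiac Ad-Cre and 5.56 CPM in cardiac Ad-GFP, 64.9 CPM in lung Ad-Cre and 71.4 CPM in lung Ad-GFP, and 139 CPM in tail tip Ad-Cre and 180.0 CPM in tail tip Ad-GFP. The cardiac value lay below lung by a log2 fold change of -3.66 (SE 0.17, adjusted p = 2.0e-05) and below tail tip by -4.88 (SE 0.18, adjusted p = 1.7e-05), and lung lay below tail tip by -1.22 (SE 0.15, adjusted p = 0.00055). Igfbp6, which prefers IGF2, had 7.98 CPM in cardiac Ad-Cre and 5.44 CPM in cardiac Ad-GFP, 59.3 CPM in lung Ad-Cre and 45.4 CPM in lung Ad-GFP, and 79.6 CPM in tail tip Ad-Cre and 67.3 CPM in tail tip Ad-GFP. It did not overlap between origins, and cardiac lay below lung by -2.97 (SE 0.17, adjusted p = 4.2e-05) and below tail tip by -3.47 (SE 0.18, adjusted p = 3.2e-05). Lung below tail tip was -0.50 (SE 0.16, adjusted p = 0.033), a call lost in the fit of origin alone (adjusted p = 0.096) and without any 1 of the lung and tail tip libraries (adjusted p between 0.13 and 0.46).

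Igfbp7, a secreted protein with low affinity for IGFs, had 335 CPM in cardiac Ad-Cre and 604 CPM in cardiac Ad-GFP, 63.8 CPM in lung Ad-Cre and 65.9 CPM in lung Ad-GFP, and 233 CPM in tail tip Ad-Cre and 336 CPM in tail tip Ad-GFP. Lung was lowest and did not overlap the other origins, whose ranges overlapped. Igfbp7 was higher in cardiac than in lung fibroblasts by 2.79 on the log2 scale (SE 0.22, adjusted p = 0.00013) and lower in lung than in tail tip, with a log2 fold change of -2.10 (SE 0.21, adjusted p = 0.00021). Cardiac over tail tip was 0.70 (SE 0.20, adjusted p = 0.036), and the call was lost in the fit of origin alone (adjusted p = 0.087), without cardiac Ad-GFP (0.36, adjusted p = 0.077), without tail tip Ad-Cre (adjusted p = 0.22) and without tail tip Ad-GFP (adjusted p = 0.18). Polr2b, which overlaps Igfbp7 on the opposite strand, had 2630 to 4188 reads, and the labels do not say whether counting used strand.

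The make-up of the binding protein RNA differed between origins. Shares here are of the sum of the 6 binding protein genes in CPM per kilobase of exon. Igfbp7 made up 86.0% in cardiac Ad-Cre and 94.4% in cardiac Ad-GFP. In lung fibroblasts Igfbp7 held 37.7% in Ad-Cre and 44.0% in Ad-GFP, beside Igfbp6 with 38.1% in Ad-Cre and 33.0% in Ad-GFP. In tail tip fibroblasts Igfbp4 held 63.8% in Ad-Cre and 59.9% in Ad-GFP, so that a different binding protein led in tail tip than in cardiac cells. The summed binding protein level was 323 and 529 CPM per kilobase in cardiac Ad-Cre and Ad-GFP, 140 and 124 in lung Ad-Cre and Ad-GFP, and 908 and 1036 in tail tip Ad-Cre and Ad-GFP. These sums stood at 54.8 and 87.4 times the Igf1 level per kilobase in cardiac Ad-Cre and Ad-GFP, 294 and 189 times in lung Ad-Cre and Ad-GFP, and 105 and 86.1 times in tail tip Ad-Cre and Ad-GFP. These multiples include Igfbp7, a protein with low affinity for IGFs, which made up 86.0% and 94.4% of the cardiac sums. They therefore do not give the level of the other binding proteins beside Igf1. Such multiples also depend on the length taken. With the longest transcript as length, the lung Ad-Cre sum was 144 CPM per kilobase and Igf1 0.668. Per kilobase of exon the same values were 140 and 0.476.

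**Figure D3:**
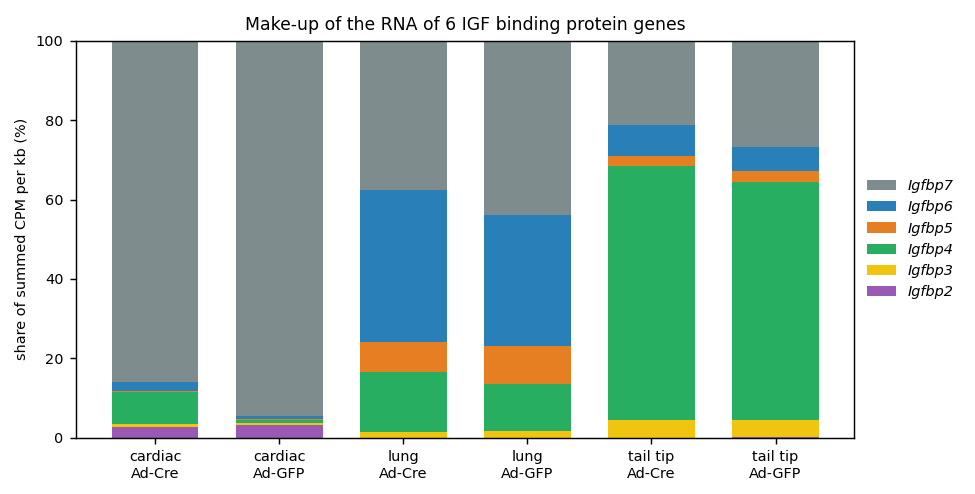
Share of each of 6 binding protein genes in their summed CPM per kilobase of exon (y axis, percent) for each library (x axis), with 1 bar per library. Igfbp7 fills 86.0% and 94.4% of the cardiac bars, and Igfbp4 fills 63.8% and 59.9% of the tail tip bars.

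For the other members, the 2 genes of most similar pattern over the 6 libraries were Mafk and Myom1 for Igf1r (r = 0.999 and 0.997), Mtch1 and Wdr1 for Igf2r (0.997 and 0.995), Cilp and Ifit3b for Igfbp3 (0.999 each), and Adam23 and Sned1 for Igfbp4 (0.994 each). They were Pik3r5 and Hoxb13 for Igfbp5 (0.997 each), Zic1 and Zfp395 for Igfbp6 (0.996 each), and H2afy2 and Smad6 for Igfbp7 (0.998 and 0.992). These genes top longer lists. Genes above r = 0.95 numbered 160 for Igf1r, 183 for Igf2r, 43 for Igfbp2 and 206 for Igfbp3. There were 48 for Igfbp4, 67 for Igfbp5, 76 for Igfbp6 and 166 for Igfbp7. Igf2, with its few reads, had 6 genes above r = 0.95, led by Slc30a1 (0.973) and Tmem87b (0.966). These values describe 3 pairs of libraries that share an origin.

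The origin accounted for between 92.5% and 99.7% of the variance of log2 CPM over the 6 libraries for 9 members, and for 70.7% for Igf2. The virus, as a change common to the 3 origins, accounted for at most 4.61%, the value of Igf2. Virus differences that vary between origins fall in the remainder, which was 24.7% for Igf2 and 4.23% for Igfbp4.

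The Ad-Cre libraries were compared with the Ad-GFP libraries for a change common to the 3 origins. Here 0 of the 10 members passed the threshold, as did 0% of all genes tested with edgeR; 367 genes had an unadjusted p under 0.05, DESeq2 called 3 genes and limma-voom 0. Igfbp2, Igfbp6 and Igfbp7 had unadjusted p = 0.016, 0.021 and 0.024, with log2 fold changes of -0.83, 0.39 and -0.48 and adjusted p = 0.9996 each. Igfbp4 had a log2 fold change of 0.92 (SE 0.45, unadjusted p = 0.079, adjusted p = 0.9996). It was called without the filter on low counts (adjusted p = 6.1e-07). Its Ad-Cre over Ad-GFP ratio was 5.61 in cardiac, 1.42 in lung and 0.936 in tail tip cells, so the origins did not share a direction. The log2 fold change was 1.49 when either tail tip library was left out, which leaves the virus effect to the cardiac and lung pairs.

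Within an origin, a pair of single libraries allows no test, so ratios carry a 95% counting interval only. A difference was counted as at least 2-fold on the log2 ratio with a prior count of 2. In cardiac cells Igfbp4 and Igf2 were that much higher in Ad-Cre, where 11.3% of all genes were at least 2-fold higher and 9.07% lower. In lung cells 0 members were higher and Igf2, with 0 and 2 reads, was the 1 lower, beside 4.87% and 2.82% of all genes. In tail tip cells 0 members were counted, beside 1.53% higher and 1.58% lower among all genes. Without the prior count, the CPM ratio of Igf2 was 3.91 (1.54 to 11.8) in cardiac cells and 2.11 (0.677 to 7.76) in tail tip cells, the last from 11 reads in Ad-Cre against 5 in Ad-GFP.

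Igfbp4 in cardiac cells stood apart from the other 2 origins: its Ad-Cre over Ad-GFP ratio was 5.61 (5.16 to 6.11), with 3479 reads in Ad-Cre against 660 in Ad-GFP. The ratio was 1.42 (1.34 to 1.51) in lung and 0.936 (0.927 to 0.944) in tail tip cells. Markers of other cell types also differed between the 2 cardiac libraries. The 6 epithelial markers summed to 128 CPM in cardiac Ad-Cre against 9.67 CPM in cardiac Ad-GFP, and the 6 mesothelial markers to 132 CPM against 61.3 CPM, with none of either list at 0 in these 2 libraries. All 5 tested epithelial markers were at least 2-fold higher in cardiac Ad-Cre, as were 4 of the 6 mesothelial markers, while Lrrn4 had 9.42 CPM in Ad-Cre against 32.2 CPM in Ad-GFP and Wt1 8.83 CPM against 9.43 CPM. In lung cells, 4 of the 5 tested epithelial markers were also at least 2-fold higher in Ad-Cre and 0 lower. The epithelial list summed to 6.27 CPM in lung Ad-Cre against 0.377 CPM in lung Ad-GFP. In tail tip cells, 0 epithelial markers were higher and 1 lower. Of the 8 tested genes that mark the origins, 3 were at least 2-fold higher in cardiac Ad-Cre and 1 lower. The 3 higher genes were Hoxc13, with 81 reads in cardiac Ad-Cre against 0 in cardiac Ad-GFP, Tbx4 with 37 against 4, and Hoxa13 with 5 against 0. Hoxd13, which was not tested, had 38 against 5. In tail tip Ad-Cre and Ad-GFP, Hoxc13 had 1545 and 1622 reads, Tbx4 426 and 403, Hoxa13 184 and 171, and Hoxd13 1 and 1. The 1 lower gene was Hand2, at 12.1 CPM in cardiac Ad-Cre against 26.3 CPM in cardiac Ad-GFP. Tbx20, short of 2-fold, had 406 CPM against 661 CPM. The 9 origin genes summed to 578 CPM in cardiac Ad-Cre against 839 CPM in cardiac Ad-GFP, with 2 of them at 0 in the Ad-GFP library. The 8 fibroblast markers summed to 11491 CPM in cardiac Ad-Cre against 16677 CPM in cardiac Ad-GFP. Of these, 0 were at least 2-fold higher in Ad-Cre and 2 lower. The 9 macrophage and leukocyte markers were at 616 CPM in cardiac Ad-Cre against 1032 CPM in cardiac Ad-GFP. The part of these lists in the Igfbp4 ratio was not tested.

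Igfbp7 and Igfbp2 were lower in cardiac Ad-Cre than in cardiac Ad-GFP, at ratios of 0.555 (0.542 to 0.569) and 0.524 (0.470 to 0.584), and in tail tip cells at 0.694 (0.674 to 0.714) and 0.545 (0.303 to 0.956). In lung cells Igfbp7 was at 0.968 (0.906 to 1.03), and Igfbp2 had too few reads for a ratio to be read. The counting interval of Igfbp6 lay above 1 in all 3 origins, at 1.47 in cardiac, 1.31 in lung and 1.18 in tail tip cells. Igf1 was at 0.972 (0.911 to 1.04) in cardiac, 0.727 (0.574 to 0.918) in lung and 0.722 (0.687 to 0.758) in tail tip cells. The receptors had ratios near 1, with Igf1r between 0.998 and 1.15 and Igf2r between 0.923 and 1.07 over the 3 origins.

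**Figure D4:**
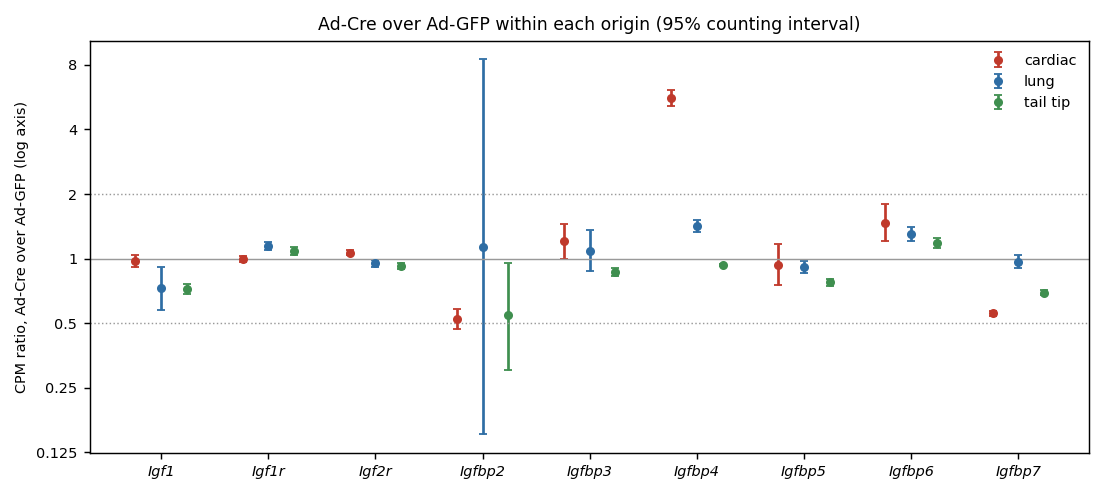
Ratio of CPM in Ad-Cre over Ad-GFP (y axis, log scale) for 9 genes in cardiac, lung and tail tip cells, with 95% counting intervals and dotted lines at 2-fold. Igf2 is left out for its low counts, and Igfbp4 in cardiac cells, at 5.61, lies above all other points.

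Other genes of the pathway were followed as lists, each to be read against the shares of all genes called: 20.8% higher and 17.6% lower in cardiac over lung, 15.5% and 18% in cardiac over tail tip, and 22.3% and 28.2% in lung over tail tip. Among the 8 proteases of the binding proteins and their inhibitors, 7 were tested; 3 were higher and 3 lower in cardiac than in lung fibroblasts, 3 higher and 2 lower in cardiac than in tail tip, and 3 higher and 3 lower in lung than in tail tip. Their median log2 fold changes were 0.41, 0.22 and 0.50 in these comparisons, beside the medians of all genes given above. Pappa, the protease that cuts IGFBP4, ran with the origins in the order of tail tip, cardiac, lung. It had 29.1 and 58.96 CPM in cardiac Ad-Cre and Ad-GFP, 8.49 and 8.47 CPM in lung Ad-Cre and Ad-GFP, and 341 and 332 CPM in tail tip Ad-Cre and Ad-GFP. Its log2 fold change was 2.32 for cardiac over lung (SE 0.28, adjusted p = 0.00099), -2.99 for cardiac over tail tip (SE 0.28, adjusted p = 0.00030) and -5.32 for lung over tail tip (SE 0.32, adjusted p = 2.1e-05). Stc1 and Stc2, which encode stanniocalcins that inhibit PAPP-A, were lower in cardiac than in lung fibroblasts, at -2.76 (adjusted p = 0.0011) and -1.06 (adjusted p = 0.020). They split in cardiac over tail tip, where Stc1 was lower (-1.14, adjusted p = 0.040) and Stc2 higher (0.93, adjusted p = 0.039). Htra1, a serine protease, was higher in cardiac than in tail tip fibroblasts by 2.25 on the log2 scale (adjusted p = 0.0013). It was also higher in lung than in tail tip (1.84, adjusted p = 0.0017), and cardiac over lung was not called (adjusted p = 0.28).

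Of 10 receptor substrates and adaptors, 9 were tested, and 3 were higher and 3 lower in cardiac than in lung fibroblasts, 3 and 3 in cardiac than in tail tip, and 2 and 3 in lung than in tail tip (all genes 22.3% and 28.2%), with medians of -0.45, -0.13 and -0.09. Grb10, an adaptor that restrains signalling by the insulin and IGF1 receptors, stood at 1 or 2 reads in lung fibroblasts. It had 6140 reads in cardiac Ad-Cre and 7322 in cardiac Ad-GFP, 2 in lung Ad-Cre and 1 in lung Ad-GFP, and 4933 in tail tip Ad-Cre and 4778 in tail tip Ad-GFP. With both viruses summed, cardiac cells had 3898 times the lung level (95% counting interval 1333 to 18902). Irs2, a receptor substrate, was higher in cardiac and lung than in tail tip fibroblasts, by 2.16 (adjusted p = 0.00061) and 2.61 (adjusted p = 0.00014) on the log2 scale. Insr, the insulin receptor, did not pass the threshold in any comparison of origins, and per kilobase Igf1r stood at 6.24 and 11.4 times Insr in cardiac Ad-Cre and Ad-GFP, 3.79 and 3.13 times in lung Ad-Cre and Ad-GFP, and 3.17 and 2.89 times in tail tip Ad-Cre and Ad-GFP.

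The 3 mRNA-binding proteins named for Igf2 mRNA split by member: Igf2bp1 and Igf2bp3 were lower in cardiac than in lung fibroblasts, with log2 fold changes of -0.89 (adjusted p = 0.0075) and -0.75 (adjusted p = 0.0092), and higher in lung than in tail tip by 2.39 (adjusted p = 6.2e-05) and 1.79 (adjusted p = 0.00012). Igf2bp2 passed in none of the 3 comparisons. The medians of the 3 genes were -0.75, 1.04 and 1.79. Of 6 genes of the growth hormone axis, which drives Igf1 in liver, 4 were higher and 1 lower in cardiac than in lung fibroblasts (all genes 20.8% and 17.6%), 2 higher and 2 lower in cardiac than in tail tip, and 2 higher and 3 lower in lung than in tail tip, with medians of 0.83, -0.20 and -0.10. Ghr, the growth hormone receptor, was higher in cardiac than in tail tip fibroblasts by 2.54 (adjusted p = 8.6e-05) and in lung than in tail tip by 2.05 (adjusted p = 9.6e-05), while Stat5a, a transcription factor activated by that receptor, was lower in the same comparisons, with log2 fold changes of -2.56 (adjusted p = 9.3e-05) and -3.65 (adjusted p = 1.3e-05).

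Of 20 genes of PI3K, AKT and mTOR signalling, 3 were higher and 2 lower in cardiac than in lung fibroblasts (all genes 20.8% and 17.6%), 2 and 3 in cardiac than in tail tip (15.5% and 18%), and 3 and 6 in lung than in tail tip (22.3% and 28.2%), with medians of 0.11, -0.03 and -0.05. Foxo1, a transcription factor kept out of the nucleus by AKT, was higher in cardiac than in lung fibroblasts by 2.16 (adjusted p = 0.00039) and lower in lung than in tail tip, at -3.05 (adjusted p = 4.5e-05). Of 12 FOXO target genes, 1 was higher and 2 lower in cardiac than in lung, 1 and 5 in cardiac than in tail tip, and 2 and 7 in lung than in tail tip, beside the same shares of all genes, with medians of -0.45, -0.63 and -1.03. Pdk4, which restrains glucose oxidation, was higher in cardiac than in tail tip fibroblasts by 3.63 (adjusted p = 0.00015), and Bnip3, a mitochondrial protein of mitophagy, was lower (-3.44, adjusted p = 2.8e-05). In lung over tail tip, Pdk4 was also higher (4.17, adjusted p = 4.3e-05) and Bnip3 also lower (-2.31, adjusted p = 3.8e-05). None of the genes in these lists passed the threshold for a virus effect common to the 3 origins.

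**Figure D5:**
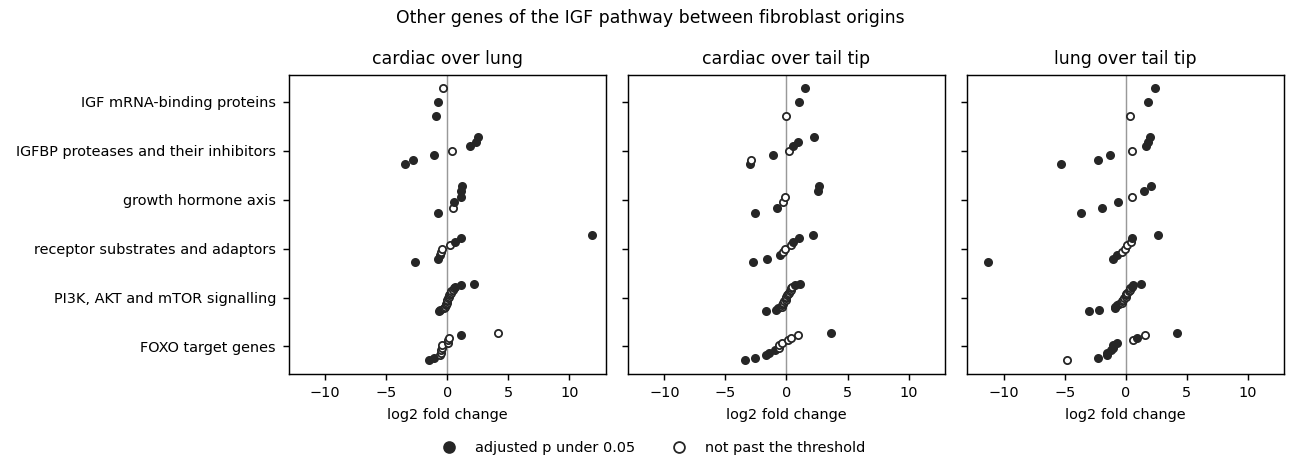
Log2 fold change (x axis) of the tested genes of 6 pathway lists between origins, with filled points for an adjusted p under 0.05. The adaptor Grb10 gives the farthest points, at 11.82 for cardiac over lung and -11.31 for lung over tail tip.

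Of 10 further ligands, receptors and carriers, 4 were tested and none passed between origins. Igfbp1 had 0 reads in all 6 libraries. Ins2, an insulin gene, had 0 reads in cardiac Ad-Cre and 13 in cardiac Ad-GFP, 10 in lung Ad-Cre and 148 in lung Ad-GFP, and 279 in tail tip Ad-Cre and 25 in tail tip Ad-GFP, and none of these comparisons passed the test between origins or for a virus effect common to them. Within pairs its CPM ratio of Ad-Cre over Ad-GFP was 10.7 (7.11 to 16.8) in tail tip and 0.0767 (0.0360 to 0.145) in lung cells. The 7 endocrine islet genes, Ins2 among them, summed to 1.31 and 3.62 CPM in cardiac Ad-Cre and Ad-GFP, 1.05 and 12.7 CPM in lung Ad-Cre and Ad-GFP, and 31.2 and 11.6 CPM in tail tip Ad-Cre and Ad-GFP. Of the 7, 4 were at least 2-fold lower in cardiac Ad-Cre, 7 lower in lung Ad-Cre and 6 higher in tail tip Ad-Cre, with 5 at 0 reads in cardiac Ad-Cre and 1 in lung Ad-Cre. Their part in the Ins2 counts was not tested.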

How the data were processed

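Polyadenylated RNA of 6 mouse fibroblast libraries was measured, 1 per origin and virus. The authors deposited whole-number read counts per Ensembl gene, with no normalisation; per the submitters' processing notes the genome build was mm39 and STAR 2.0.7 was among the tools. The sources used here do not give the counting tool, annotation or strand setting, so reads of overlapping antisense genes may be mixed. The labels tie each column to its library by name, under a matrix title that names another subject than the deposited table.

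Symbols came from GENCODE M21 (GRCm38), which named 51884 identifiers and left 5296 under their identifier; exon lengths per kilobase come from it too. The tests on counts used edgeR 4.0.16 (R 4.3.3; filterByExpr minimum count 10, TMM, robust quasi-likelihood F-test, additive model of origin and virus, 2 residual degrees of freedom, Benjamini-Hochberg over 18143 genes, threshold 0.05, two-sided). The procedure was tested on simulated data. CPM uses TMM-scaled library sizes, and log2 CPM a prior count of 2. Ratios within an origin have exact conditional binomial 95% intervals that cover counting error only, since 1 library per group gives no spread between cultures. PCR reads are not independent molecules, so even the counting error may be understated. A count of 0 allows up to 3 reads. DESeq2 1.42.0, limma-voom (limma 3.58.1), other scalings, no filter and each library left out were alternatives, and the fit without both cardiac libraries was added after seeing the data. The members and gene lists were chosen with earlier results of these data known. Named genes are the 10 members, Gata4, up to 3 examples per list with the largest fold change at a mean of at least 1 CPM, and for each member the 2 genes with the highest correlation over the 6 libraries among those with a mean of at least 5 CPM. 1 of these correlated genes is not reported here. Igfbp1, Polr2b, Stc2 in cardiac over lung and cardiac over tail tip, and Htra1 outside cardiac over tail tip fall outside this rule. So do the single marker genes given for the cardiac pair (Lrrn4, Wt1, Hoxa13, Hoxc13, Hoxd13, Tbx4, Hand2, Tbx20). All of these were chosen after their values were seen. Promoter sequences are from RefSeq, build GRCm38.p6.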

Additional observations from a re-analysis of the deposited data

Results flagged for a closer look

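Igfbp4 had an Ad-Cre over Ad-GFP ratio of 5.61 in cardiac and 1.42 in lung cells, both above 1 beyond their counting interval, and 0.936 in tail tip cells, below 1. Igf2r had a ratio of 1.07 in cardiac cells, above 1, and 0.9495 in lung and 0.923 in tail tip cells, below 1. Each was picked out because the origins moved in opposite directions, and with 1 library per group the difference between origins was not tested. The Igf2r ratios were near 1, with log2 ratios (prior count 2) of 0.09 in cardiac, -0.07 in lung and -0.12 in tail tip cells. Over all genes tested, the SD of this log2 ratio was 1.01, 0.54 and 0.39 in the same order.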

How the results depend on the processing

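Of the fold changes of single members, 275 kept their direction and side of the threshold under other settings, 4 lost a call, 7 gained one and 2 changed sign; with 1 library left out, 209 kept both, 15 lost a call, 10 gained one and 6 changed sign. For Ad-Cre over Ad-GFP common to the 3 origins, the genes called numbered 3 in DESeq2, 141 without the filter on low counts, 3 without both cardiac libraries and 11 to 109 with 1 library left out, against 0; the members called numbered 1 (Igfbp4) without the filter and 0 to 1 with 1 library left out. The log2 fold change of Igfbp3 there was -0.050 in limma-voom, -0.082 without both cardiac libraries and -0.093 to 0.19 with 1 library left out, and that of Igf2r -0.11 to 0.0053. With 1 library left out, Igfbp4 in cardiac over lung ranged from -1.84 to 0.41 and Igf2 in cardiac over tail tip from -0.17 to 1.34, and genes called ranged from 3110 to 9205 in cardiac over tail tip and from 5995 to 12560 in lung over tail tip. With a prior count of 0.5, 965 genes were at least 2-fold apart in tail tip cells. With the longest transcript as length, 25 binding protein shares stayed within the SD of their pair and 11 moved by more. Igfbp7 then held 83.9% in cardiac Ad-Cre and 93.0% in cardiac Ad-GFP. Igfbp4 held 66.2% in tail tip Ad-Cre and 62.3% in tail tip Ad-GFP. Leaving out 1 library leaves its origin a single library, assumed to vary like the others; the cause of these changes was not tested. Depth limits Igf2 everywhere and Igfbp2 in lung cells.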
